A study of Homo sapiens with 10 samples.

Results

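The genes of the cytosolic heat shock response described here are 10 genes chosen by symbol: HSPA6, HSPA1A, HSPA1B, HSPA8, HSPH1, DNAJB1, HSPB1, HSP90AA1, BAG3 and HSF1. Each matched 1 of the 60671 genes in the table of normalized counts. All 10 passed the filter for testing, a mean of 10 normalized counts or more in the 9 replicated libraries. A normalized count is the number of reads on a gene divided by a size factor of its library, so that libraries of different depth can be compared.

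The RNA came from U2OS cells, a human osteosarcoma line, kept in low glucose DMEM with serum. Ars cells received arsenite, an oxidative stressor, for 50 min and were not starved. EBSS+VBL+Ars cells spent 18 h in EBSS, a solution of salts and glucose lacking amino acids and serum, together with VBL (vinblastine, which disrupts microtubules), before arsenite. EBSS+VBL+Gln+Ars cells had the same treatment with glutamine added. Each of these 3 groups had 3 libraries, all of them from arsenite-treated cells, and 1 further library came from untreated cells. The study used the groups to ask how starved cells respond to stress with and without glutamine. The absence of amino acids, the absence of serum and VBL came together in these cells and cannot be told apart. The labels do not say whether the libraries of a group stem from different cultures, and p-values therefore cover just the variation among these libraries, possibly technical.

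Heat shock proteins are chaperones that bind unfolded proteins and help them refold or send them to degradation. In unstressed cells the transcription factor HSF1 is held inactive by chaperones of the HSP70 and HSP90 families. Unfolded proteins draw these chaperones away, and HSF1 then forms trimers and binds heat shock elements, inverted repeats of the unit GAA and its complement TTC, in the promoters of chaperone genes. Arsenite reacts with thiols in proteins and is a known inducer of this response. The 10 genes hold both stress-inducible chaperones with little transcript in resting cells and constitutive ones with abundant transcript.

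The promoters are shown because the genes behaved differently after arsenite although heat shock elements are the motif that HSF1 binds. Promoters were taken from RefSeq (GRCh38.p14), and 250 bases before the start were searched on both strands for GAANNTTC or TTCNNGAA, each of which is its own reverse complement. The table held 9 of the 10 genes, HSF1 being the exception. A match lay in 7 of the 9, against 11.6% of 35116 promoters of the same length. The longer motif of 3 units, GAANNTTCNNGAA or its reverse complement TTCNNGAANNTTC, overlaps the shorter one and lay in 0.441% of all promoters and in those of HSPA6, HSPA8 and HSP90AA1. Neither HSPH1 nor BAG3 had a match in this window, and the tabled start of HSPH1 lies 484 bases from the start of its main transcript in GENCODE. The windows below are 120 bases long and are read 5′ to 3′ along the gene, with the matches in capitals. They end 1 base before the start, except that of HSPB1, which runs from 200 to 81 bases before it. The first 3 windows hold the longer motif.
HSPA6, chr1:161524420-161524539, plus strand: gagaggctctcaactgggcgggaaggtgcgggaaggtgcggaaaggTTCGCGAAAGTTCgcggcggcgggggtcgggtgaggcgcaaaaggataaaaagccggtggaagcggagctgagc
HSPA8, chr11:123062137-123062256, minus strand: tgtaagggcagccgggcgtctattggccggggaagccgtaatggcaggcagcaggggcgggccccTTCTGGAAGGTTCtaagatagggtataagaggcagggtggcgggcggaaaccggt
HSP90AA1, chr14:102087045-102087164, minus strand: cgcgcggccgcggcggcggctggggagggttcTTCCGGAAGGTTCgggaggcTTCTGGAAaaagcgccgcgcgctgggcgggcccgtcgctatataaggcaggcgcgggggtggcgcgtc
HSPA1A, chr6:31815423-31815542, plus strand: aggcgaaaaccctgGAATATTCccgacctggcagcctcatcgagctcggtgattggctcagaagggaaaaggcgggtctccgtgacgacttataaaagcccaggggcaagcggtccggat
HSPA1B, chr6:31827618-31827737, plus strand: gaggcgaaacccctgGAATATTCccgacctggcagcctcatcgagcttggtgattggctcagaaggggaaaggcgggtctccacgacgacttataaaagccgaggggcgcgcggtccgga
DNAJB1, chr19:14518398-14518517, minus strand: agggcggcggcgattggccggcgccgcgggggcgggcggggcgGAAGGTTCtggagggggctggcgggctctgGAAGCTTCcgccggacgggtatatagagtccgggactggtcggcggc
HSPB1, chr7:76302473-76302592, plus strand: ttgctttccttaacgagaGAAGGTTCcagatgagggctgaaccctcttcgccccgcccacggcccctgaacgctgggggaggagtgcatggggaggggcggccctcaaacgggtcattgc

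In HSPA8 and HSP90AA1 the match nearest the start began 50 and 68 bases before it, and in HSPA6 it began 69 bases before it. HSPA1A and HSPA1B have nearly the same promoter, with a single match that began 106 and 105 bases before the start. DNAJB1 had 2 matches, which began 77 and 47 bases before the start, and HSPB1 had 1, which began 182 bases before it. A match is a stretch of letters and not evidence of binding. Only exact matches were sought, so a promoter without a match is not shown to lack a heat shock element. The genes were chosen as heat shock genes, so the excess of matches over all promoters is no independent result.

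Reads on genes were 5914439 to 7019842 in Ars, 3538017 to 4993421 in EBSS+VBL+Ars, 4452208 to 6323628 in EBSS+VBL+Gln+Ars and 5302037 in the untreated library. Between 7.88 and 20.2% of the reads of a library fell on RN7SL1, an abundant small cytoplasmic RNA. Of 11 mesenchymal and osteoblast-lineage markers 9 reached a mean of 10 normalized counts and 1 was at 0 in every library. Their summed level was 33990 to 36208 in Ars, 19123 to 21616 in EBSS+VBL+Ars, 21718 to 23473 in EBSS+VBL+Gln+Ars and 17387 in the untreated library. Of 8 epithelial markers 1 reached a mean of 10 (sum 20.9 to 126 per library), and of 10 blood cell markers none did (sum 2.52 to 12.3). The summed levels differed between the groups, and their part in the results below was not tested. In bulk RNA fewer cells with a transcript and less transcript per cell cannot be told apart.

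After arsenite the inducible HSP70 genes HSPA6, HSPA1A and HSPA1B were far above the untreated library, whereas HSPA8, the constitutive HSP70, and HSP90AA1, which encodes HSP90 alpha, were slightly below it. The untreated library had no replicate, so the comparison has no test. The mean of the 3 Ars libraries was set over the untreated value, with a Poisson 95% interval that covers only the counting error of the untreated library. Of the 10 genes, 6 were at least 1.5-fold higher in Ars (HSPA6, HSPA1A, HSPA1B, DNAJB1, HSPB1 and BAG3) and none was as much lower. Of the 6129 genes that averaged 100 normalized counts or more in these 4 libraries, 15.5% were at least 1.5-fold higher and 18.4% at least 1.5-fold lower. The median log2 ratio was 0.95 for the 10 genes and -0.02 for all genes compared. A rise was not particular to these genes. Of 13 chaperones of the ER, 8 were at least 1.5-fold higher and 1 lower (median 0.83). Of 10 oxidative and metal response genes, 6 were higher and 3 lower (median 0.91). None of 11 J-domain co-chaperones and none of 11 genes of HSP90 and its co-chaperones was at least 1.5-fold higher. HSPA6 passed the minimum only through the Ars libraries.

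HSPA6 encodes a strictly inducible cytosolic HSP70 (ENSG00000173110, chr1:161524540-161526894 on hg38). It had 1 read in the untreated library, 0.951 normalized counts. In Ars it had 244, 452 and 296 normalized counts, in EBSS+VBL+Ars 290, 562 and 456, and in EBSS+VBL+Gln+Ars 298, 519 and 308. All 9 arsenite-treated libraries were far above the untreated one, and the 3 treated groups overlapped. The Ars mean was 348 times the untreated value, first in rank among the genes compared, and the interval, 62.4 to 13737, shows how little a single read fixes that ratio. HSPA6 shares 45.8% of its stretches of 50 bases with the pseudogene HSPA7, which was listed at 0 in the untreated library and at 0.675 to 12.2 normalized counts in the others.

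HSPA1A and HSPA1B encode the main inducible HSP70 and lie next to each other (ENSG00000204389, chr6:31815543-31817946, and ENSG00000204388, chr6:31827738-31830254). HSPA1A had 168 normalized counts in the untreated library and 1837, 2304 and 2070 in Ars. The ratio was 12.3 (95% interval 10.6 to 14.3). HSPA1B had 138 normalized counts in the untreated library and 1172, 1524 and 1218 in Ars, a ratio of 9.46 (8.04 to 11.2). The pair ranked 6th and 7th of all genes compared. HSPA1A shares 75.1% of its 50-base stretches with HSPA1B, so the split of reads between them is uncertain, and HSPA1B also overlaps ENSG00000285565 on the same strand, which was listed at 0 in every library. Summed over the pair, the normalized counts were 306 in the untreated library and 3009, 3828 and 3289 in Ars, a ratio of 11.0. The ratio of HSPA1A to HSPA1B was 1.22 in the untreated library, 1.51 to 1.70 in Ars, 1.86 to 1.93 in EBSS+VBL+Ars and 1.74 to 1.89 in EBSS+VBL+Gln+Ars.

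DNAJB1 encodes the HSP40 co-chaperone that hands unfolded proteins to HSP70 (ENSG00000132002, chr19:14514769-14560391). It had 512 normalized counts in the untreated library and 1453, 1830 and 1433 in Ars, a ratio of 3.07 (2.82 to 3.35). HSPB1 encodes the small heat shock protein HSP27, which holds unfolded proteins without using ATP (ENSG00000106211, chr7:76302673-76304295). Its normalized counts were 2438 in the untreated library and 5588, 6355 and 5681 in Ars, a ratio of 2.41 (2.32 to 2.51). BAG3 encodes a nucleotide exchange factor that links HSP70 to small heat shock proteins and autophagy (ENSG00000151929, chr10:119651380-119677819). BAG3 had 206 normalized counts in the untreated library and 296, 348 and 316 in Ars, a ratio of 1.55 (1.36 to 1.78). That interval reaches below 1.5, and without Ars replicate 2 only 5 genes passed the 1.5-fold limit. For all of these genes each Ars library lay above the untreated one.

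The other 4 genes differed from the untreated library by less than 1.5-fold. HSPH1, an HSP110 that exchanges nucleotides on HSP70 (ENSG00000120694, chr13:31134973-31162388), had 341 normalized counts in the untreated library and 453, 425 and 397 in Ars. HSPA8, the constitutive HSC70 (ENSG00000109971, chr11:123057489-123063230), had 6058 in the untreated library and 5659, 5232 and 5236 in Ars. HSP90AA1, the inducible HSP90 alpha (ENSG00000080824, chr14:102080742-102139699), had 1964 in the untreated library and 1817, 1415 and 1821 in Ars. In these terms HSPH1 was slightly above the untreated library in all 3 Ars libraries, and HSPA8 and HSP90AA1 slightly below it. HSF1 (ENSG00000185122, chromosome 8) had 3091 in the untreated library and 2566, 3350 and 2780 in Ars, on both sides of the untreated value. The ratios were 1.25 for HSPH1, 0.938 for HSF1, 0.887 for HSPA8 and 0.858 for HSP90AA1. Of the 3 genes with the longer motif, HSPA6 thus had the highest ratio of the 10 genes and HSPA8 and HSP90AA1 the lowest.

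**Figure D1:**
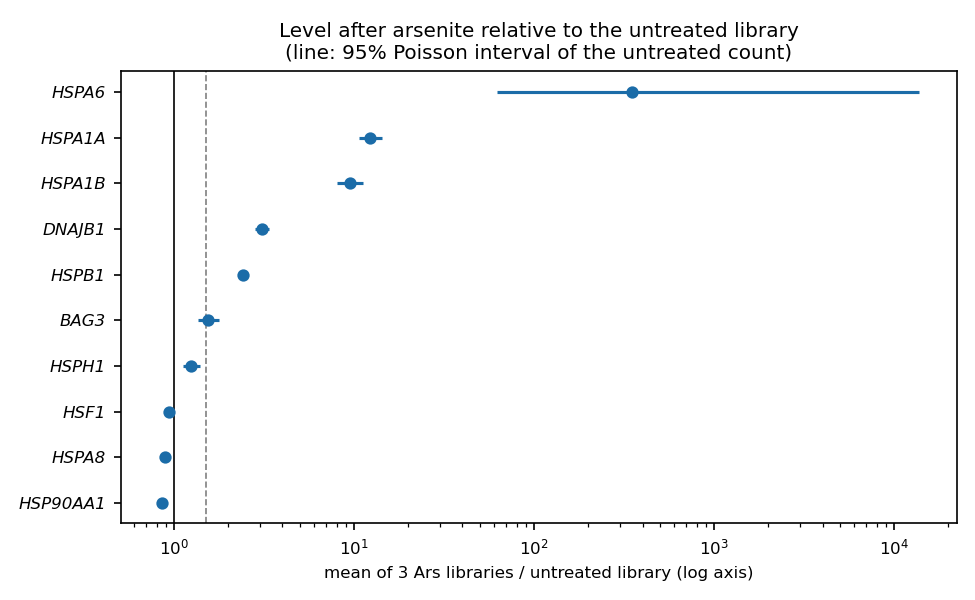
Ratio of the mean of the 3 Ars libraries to the untreated library for each gene (points, log axis), with the Poisson 95% interval of the untreated count (lines) and the 1.5-fold limit (dashed). HSPA6 stands at 348 with an interval of 62.4 to 13737, HSPA1A and HSPA1B at 12.3 and 9.46, and HSF1, HSPA8 and HSP90AA1 just below 1.

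Levels of different genes were set side by side per kb of transcript, without correction for sequence shared with other genes. In the untreated library HSPB1 had the highest level, 3138 normalized counts per kb, followed by HSPA8 with 2676 and HSF1 with 1448, and the lowest levels were 70.1 for HSPA1A, 65.1 for HSPH1, 54.8 for HSPA1B and 0.404 for HSPA6. In Ars, HSPB1 had 7561 per kb and HSPA8 2374, while HSPA1A had 863 and DNAJB1 701, both above HSP90AA1 with 522 and HSPA1B with 518. HSPA6 reached 140 per kb, next to BAG3 with 125, and HSPH1 was lowest with 81.1. By these uncorrected values the inducible HSPA1A after arsenite lay between HSF1 (1358) and DNAJB1, and below the constitutive HSPA8. Shared stretches made up 75.1% of those of HSPA1A, 73.6% of those of HSPA1B and 45.8% of those of HSPA6, against 16.8% for HSPA8. Reads lost or gained through shared sequence could change the level per kb, which was not tested. The ranks of HSPA1A, HSPA1B and HSPA6 among the 10 genes are therefore uncertain. Together the 10 genes took 0.296% of the reads in the untreated library, 0.422 to 0.445% in Ars, 0.327 to 0.359% in EBSS+VBL+Ars and 0.349 to 0.382% in EBSS+VBL+Gln+Ars.

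**Figure D2:**
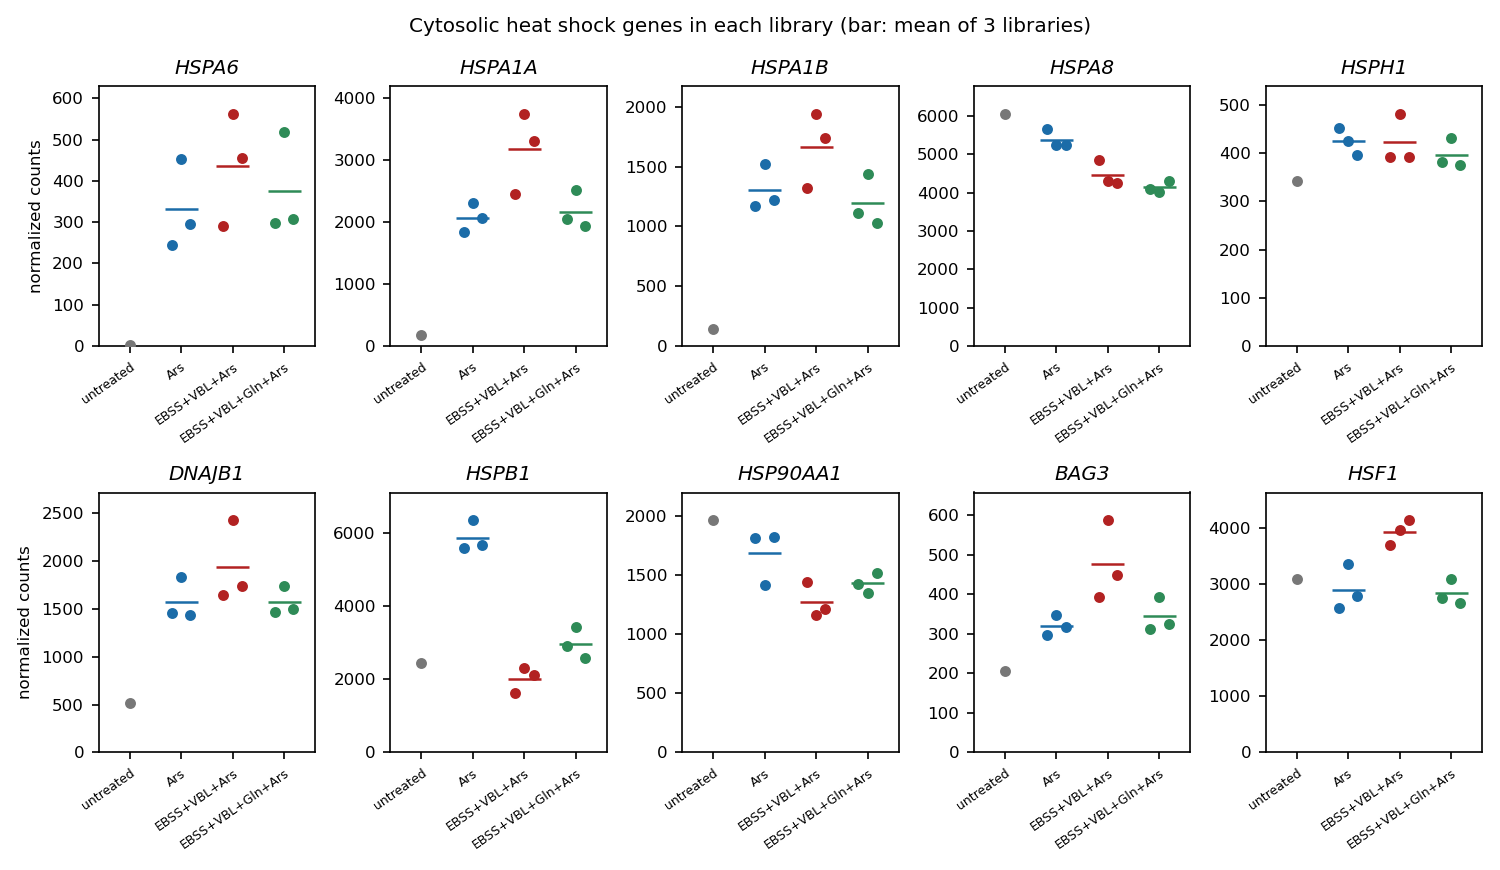
Normalized counts of the 10 genes (y axis, starting at 0) in each library, with 1 point per library and a bar at the mean of 3 libraries. The untreated library lies far below all others for HSPA6, HSPA1A, HSPA1B and DNAJB1, and for HSPB1 the EBSS+VBL+Ars libraries lie near the untreated one, at 1621 to 2308.

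With starvation and VBL before arsenite, HSPB1 was about as low as in untreated cells while the inducible HSP70 genes stood at or above their Ars level. Differences between replicated groups were tested with limma on log2(normalized count + 1), and a call required an adjusted p under 0.05 together with at least a 1.5-fold difference. In EBSS+VBL+Ars against Ars, 1 of the 10 genes was called higher (HSPA1A) and 1 lower (HSPB1), against 21.5% of the 12971 genes tested called higher and 21.3% called lower. By the adjusted p alone 6 of 10 passed, against 56.3% of all genes, and 5 of 10 had groups that did not overlap, against 60.0%. The median log2 fold change was 0.32 for the 10 genes and 0.02 for all genes tested.

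HSPB1 had 5588, 6355 and 5681 normalized counts in Ars and 1621, 2308 and 2122 in EBSS+VBL+Ars. Every starved library lay below every Ars library, and all 3 lay below the single untreated value of 2438. The mean fell from 5875 ± 419 to 2017 ± 356 (SD, n = 3 each), 2.94-fold lower, with a log2 fold change of -1.56 ± 0.13 (SE) and an adjusted p of 1.13e-08 by limma. In EBSS+VBL+Gln+Ars HSPB1 had 2925, 3421 and 2573, between the other groups and without overlap with either. The mean, 2973 ± 426, was 1.99-fold lower than in Ars (log2 fold change -0.99 ± 0.13, adjusted p 6.78e-06 by limma). Against EBSS+VBL+Ars it was 1.48-fold higher (log2 fold change 0.57 ± 0.13, adjusted p 0.00411 by limma), just under the 1.5-fold limit. That last difference passed the limit when libraries were rescaled to equal totals (0.85), after quantile normalization (0.86), with the GC trend removed (0.86) and without EBSS+VBL+Ars replicate 2 (0.67) or 3 (0.61) or EBSS+VBL+Gln+Ars replicate 3 (0.66).

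HSPA1A had 2461, 3749 and 3310 normalized counts in EBSS+VBL+Ars, each above the highest Ars library. The mean rose from 2070 ± 233 to 3173 ± 655 (SD, n = 3 each), 1.52-fold higher, with a log2 fold change of 0.60 ± 0.14 (SE) and an adjusted p of 0.00142 by limma. The call rests on the fold limit. The log2 fold change stayed positive in every alternative but was under the limit with equal totals (0.42), quantile normalization (0.34) and the GC trend removed (0.53), and without Ars replicate 1 (0.52), EBSS+VBL+Ars replicate 2 (0.47) or EBSS+VBL+Ars replicate 3 (0.56). HSPA1B had 1321, 1942 and 1742, which overlapped Ars (log2 fold change 0.35, adjusted p 0.0534 by limma). Summed over the pair, EBSS+VBL+Ars libraries had 3782, 5690 and 5053 normalized counts, the lowest of them within the range of Ars, and the ratio of means was 1.43.

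Other genes passed the adjusted p but not the fold. BAG3 had 393, 587 and 447 normalized counts in EBSS+VBL+Ars, all above Ars, with a log2 fold change of 0.55 ± 0.14 (SE, adjusted p 0.00246 by limma). It passed the fold limit without Ars replicate 2 (0.61) or without EBSS+VBL+Ars replicate 1 (0.68) or 3 (0.59). HSF1 had 3695, 3965 and 4131, also all above Ars, with a log2 fold change of 0.45 ± 0.11 (adjusted p 0.00271). HSF1 is the regulator itself, and its activity is known to be set mostly after translation. The log2 fold change of HSF1 was 0.27 with equal totals (adjusted p 0.0592 by limma) and 0.21 after quantile normalization (adjusted p 0.0685 by limma). HSP90AA1 had 1440, 1161 and 1215, which overlapped Ars through Ars replicate 2, and its log2 fold change was -0.40 ± 0.12 (adjusted p 0.00724). HSP90AA1 passed the fold limit after quantile normalization (-0.69). HSPA8 had 4841, 4311 and 4245, all below Ars, with a log2 fold change of -0.27 ± 0.10 (adjusted p 0.0347).

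The remaining 3 genes did not pass limma's adjusted p in the fit of the groups alone. The log2 fold change was 0.39 for HSPA6 (95% interval -0.10 to 0.89), 0.29 for DNAJB1 (-0.000719 to 0.58) and -0.01 for HSPH1 (-0.26 to 0.23). DNAJB1 had 1643, 2427 and 1739 normalized counts in EBSS+VBL+Ars and HSPH1 had 393, 482 and 392, both overlapping Ars. For HSPA6 the interval reaches 1.5-fold and more, and the log2 fold change was 0.64 without Ars replicate 2 and 0.66 without EBSS+VBL+Ars replicate 1, both called.

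Between starved cells with and without glutamine, none of the 10 genes was called. When values were simulated, 19% of the genes set to differ by 1.5-fold were called in this comparison. The lack of a call therefore does not show that a gene was unchanged. In EBSS+VBL+Gln+Ars against EBSS+VBL+Ars, 8.45% of all genes tested were called higher and 8.52% lower. By limma's p alone 5 of 10 genes passed (1 higher and 4 lower), the same 5 with and without adjustment, against 28.7% of all genes after adjustment, and 2 of 10 had groups that did not overlap, against 39.2%. With edgeR and with DESeq2 0 of 10 were called as well. The median log2 fold change was -0.25 for the 10 genes and 0.00398 for all genes tested.

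The 4 genes with an adjusted p under 0.05 in the lower direction all had a positive log2 fold change in EBSS+VBL+Ars against Ars. HSPA1A had 2050, 2512 and 1943 normalized counts with glutamine, of which 1 library lay within the starved range, and a log2 fold change of -0.54 ± 0.14 (SE, adjusted p 0.00879 by limma). HSPA1B had 1109, 1441 and 1029 (-0.48 ± 0.15, adjusted p 0.0204 by limma). Both HSP70 genes passed the fold limit without EBSS+VBL+Ars replicate 1 (-0.71 and -0.64) or without EBSS+VBL+Gln+Ars replicate 2 (-0.65 and -0.62). HSF1 had 2747, 3087 and 2662, all below the starved libraries (-0.47 ± 0.11, adjusted p 0.00483), and BAG3 had 313, 394 and 324, of which the highest just reached the lowest starved library (-0.46 ± 0.14, adjusted p 0.0203). The sign of these differences is not independent of the comparison of starved cells with Ars, since both use the same EBSS+VBL+Ars libraries.

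The other genes had smaller differences with glutamine. The log2 fold change was -0.28 for DNAJB1 (95% interval -0.57 to 0.00488), -0.21 for HSPA6 (-0.71 to 0.28), -0.11 for HSPA8 (-0.33 to 0.11), -0.09 for HSPH1 (-0.33 to 0.15) and 0.17 for HSP90AA1 (-0.07 to 0.42). With rescaling to equal totals the all-gene median shifted by 0.28 in this comparison, and HSPA6 (0.07), HSPA8 (0.18), HSPH1 (0.20) and DNAJB1 (0.00206) changed sign. With glutamine HSPH1 had 381, 432 and 376 normalized counts, DNAJB1 1471, 1738 and 1503, and HSP90AA1 1424, 1351 and 1520, all overlapping the starved libraries.

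Set directly against Ars, the glutamine-treated starved cells had 1 of the 10 genes called, HSPB1, which was lower, against 16.5% of all genes called higher and 15.3% lower. By adjusted p alone 2 of 10 passed, against 44.7% of all genes, and the same count had groups that did not overlap, against 57.2%. The other gene was HSPA8, with 4107, 4022 and 4293 normalized counts, below all Ars libraries (log2 fold change -0.38 ± 0.10 SE, adjusted p 0.00648 by limma). For HSPA1A the log2 fold change was 0.06 (95% interval -0.23 to 0.36), for HSF1 -0.03 (-0.27 to 0.21), for DNAJB1 0.00416 (-0.28 to 0.29) and for BAG3 0.10 (-0.20 to 0.39). The median was -0.06 for the 10 genes and 0.02 for all genes tested.

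**Figure D3:**
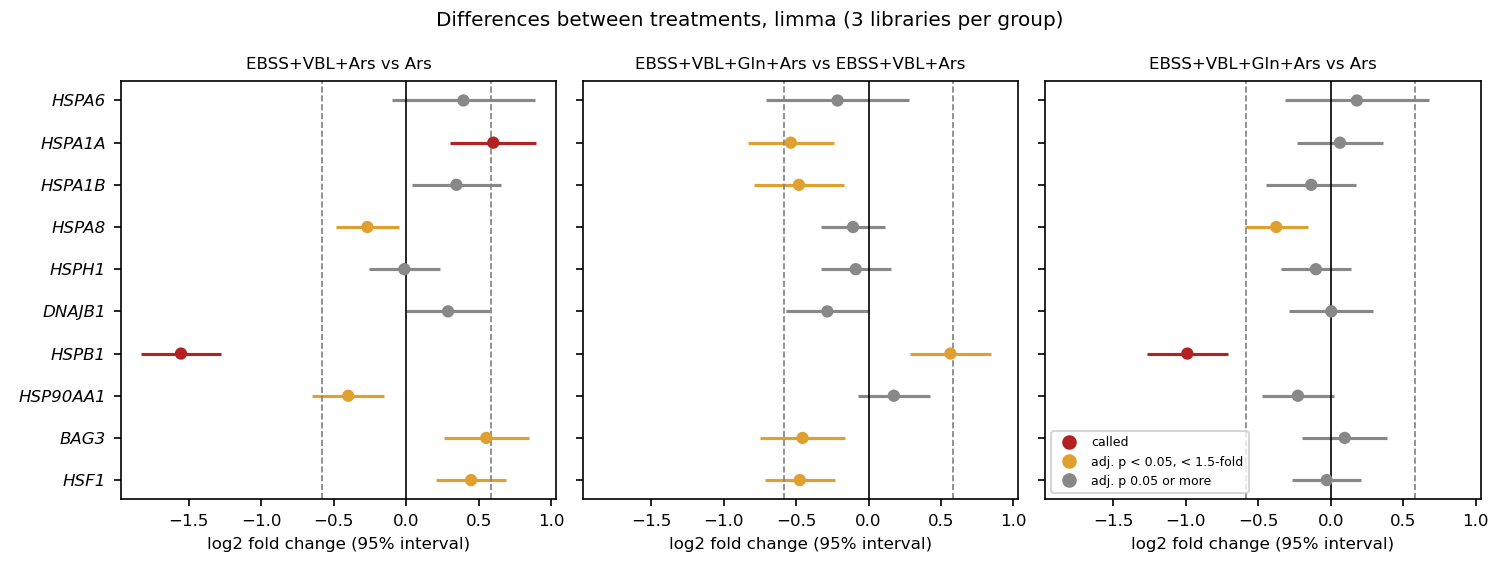
Log2 fold changes with 95% intervals from limma for the 10 genes in the 3 comparisons (x axis, with the 1.5-fold limits dashed), 3 libraries per group. HSPB1 lies at -1.56 and -0.99 against Ars, HSPA1A at 0.60 in EBSS+VBL+Ars against Ars, and no gene is called for EBSS+VBL+Gln+Ars against EBSS+VBL+Ars.

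All 3 treated groups can be set beside the same untreated library. The EBSS+VBL+Ars mean was 459 times the untreated value for HSPA6, 18.9 times for HSPA1A, 12.1 times for HSPA1B, 3.78 times for DNAJB1 and 2.31 times for BAG3. The EBSS+VBL+Gln+Ars mean was 394, 12.9, 8.65, 3.07 and 1.67 times that value in the same order. For HSPB1 the ratio was 2.41 in Ars, 0.827 in EBSS+VBL+Ars and 1.22 in EBSS+VBL+Gln+Ars. No library of starved cells without arsenite was analysed here.

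Within each group the replicate 2 library had the highest normalized count of the 3 for most of the genes, 7 of 10 in Ars, 7 of 10 in EBSS+VBL+Ars and 8 of 10 in EBSS+VBL+Gln+Ars. The median deviation of the 10 genes from their group mean in these libraries was 0.14, 0.22 and 0.18 on the log2 scale. How often replicate 2 was highest among all genes was not counted, so this trait is not shown to be particular to the 10 genes. HMOX1, the arsenite-induced heme oxygenase and no chaperone, was also highest in replicate 2 of each group, with 2482, 2448 and 2029 normalized counts against 219 in the untreated library. HSPA6 varied most between replicates, with an SD of 31.5 to 33.3% of the mean, and HSPA8 had an SD of 3.35 to 7.32%.

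The patterns most like those of HSPA6 and DNAJB1 were sought among 6249 genes by Pearson's r of log2 values over the 10 libraries, a description that rests largely on the untreated library. For HSPA6 they were MT1X (r = 0.99), a metallothionein that binds heavy metals, HSPA1B, the immediate early gene FOS, HSPA1A and HMOX1 (all 0.99). Over the 9 arsenite-treated libraries these values were 0.77, 0.84, 0.75, 0.80 and 0.79. For DNAJB1 they were HSPA1B, ZFAND2A and HSPA1A (0.98 each), FOS and HMOX1 (0.97 each), and 0.88, 0.86, 0.87, 0.84 and 0.79 over the 9 libraries. ZFAND2A encodes AIRAP, an arsenite-inducible protein that associates with the proteasome, and had 20.0 normalized counts in the untreated library against 115, 225 and 118 in Ars.

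Around these genes, 95 others of the cytosolic chaperone network, its regulators and further HSF1 targets were followed, of which 83 were tested. In EBSS+VBL+Ars against Ars 15 were called higher and 17 lower, in EBSS+VBL+Gln+Ars against EBSS+VBL+Ars 5 and 2, and in EBSS+VBL+Gln+Ars against Ars 8 and 9. Of all genes tested 21.5% were called higher and 21.3% lower in the first comparison, 8.45% and 8.52% in the second and 16.5% and 15.3% in the last, so that these counts were near or below the background and say nothing particular of the network. The medians of the 83 genes were -0.21, 0.10 and -0.06 on the log2 scale.

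Among the other genes listed by symbol as small heat shock proteins, 3 of 4 tested fell in EBSS+VBL+Ars and 1 rose. Of all genes 21.3% fell and 21.5% rose. The median log2 fold change was -1.23, against 0.02 for all genes, and rests on just these 4 genes. CRYAB, alpha B-crystallin, had 320 normalized counts in the untreated library, 1080, 1344 and 1161 in Ars and 340, 437 and 361 in EBSS+VBL+Ars. It was thus high in Ars and near the untreated value in starved cells, as HSPB1 was (log2 fold change -1.66 ± 0.14 SE, adjusted p 5.75e-09 by limma). With glutamine CRYAB had 406, 581 and 508, not called against EBSS+VBL+Ars (0.39, adjusted p 0.0388 by limma). HSPB8, the partner of BAG3 in chaperone-assisted autophagy, rose from 270 ± 53.6 to 572 ± 19.0 (SD, n = 3 each, log2 fold change 1.10, adjusted p 6.43e-07 by limma) and was 386 ± 20.3 with glutamine. HSPB7 fell from 40.4 to 6.78, close to the floor, and HSPB11 from 96.8 to 55.6. The symbol of HSPB11 does not show that it acts as a chaperone.

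The HSP90 group held HSP90AB1 and the co-chaperones that load clients onto HSP90 or pace its ATPase. Of 15 tested, 4 were called lower and none higher in EBSS+VBL+Ars against Ars, where 21.3% and 21.5% of all genes were (median -0.48), among them PPP5C, a phosphatase bound to HSP90 (-0.75), and AHSA1, an activator of its ATPase (-0.62). The constitutive HSP90AB1 had a log2 fold change of -0.48 (adjusted p 0.00188 by limma) and STIP1, which bridges HSP70 and HSP90, one of -0.54 (adjusted p 0.00089 by limma), both under the fold limit. None was called with glutamine against EBSS+VBL+Ars, and 2 were lower than in Ars, AHSA1 (-0.59) and the immunophilin FKBP4 (-0.74).

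Of the J-domain proteins, which choose the clients of HSP70, 4 of 18 were called higher and 1 lower in EBSS+VBL+Ars against Ars, and of all genes 21.5% and 21.3%, so that the share called higher was that of the background. DNAJB2 rose from 984 ± 52.6 to 1648 ± 44.7 (SD, n = 3 each) and fell to 855 ± 59.1 with glutamine. DNAJC5, the cysteine string protein of secretory vesicles (0.85), and DNAJB12, an ER membrane protein facing the cytosol (0.76), rose, and DNAJC9, a histone chaperone (-0.99), fell. In the untreated library DNAJC5 had 808 normalized counts, above its means of 417 in Ars and 752 in EBSS+VBL+Ars. Of 10 exchange and degradation co-factors of HSP70, 2 were higher and 3 lower, near the same shares. BAG6, which guards hydrophobic proteins in the cytosol, rose (0.68), whereas BAG2 (-0.97), STUB1, the ubiquitin ligase CHIP (-0.61), and HIKESHI, which carries HSP70 into the nucleus (-1.12), fell. HIKESHI rose again with glutamine (0.82).

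The chaperonin TRiC folds actin and tubulin, and prefoldin delivers them to it. Of 14 subunits tested, 1 was called higher in EBSS+VBL+Ars against Ars and 2 lower, both below the 21.5% and 21.3% of all genes. PFDN2 rose from 103 ± 8.42 to 253 ± 50.2 normalized counts (log2 fold change 1.28), PFDN1 fell (-0.92) and CCT5 fell (-0.65). With glutamine 2 subunits were higher than in EBSS+VBL+Ars, among them PFDN1 (0.95). The remaining cytosolic HSP70 and HSP110 genes had 2 tested and none called, with -0.16 for HSPA4, an HSP110, and -0.41 for HSPA12A.

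Among HSF family genes and regulators of HSF1, 3 of 7 were called higher in EBSS+VBL+Ars against Ars and none lower, beside 21.5% and 21.3% of all genes, with a list median of -0.10. SIRT1, a deacetylase of HSF1, rose from 40.0 ± 9.18 to 114 ± 9.50 normalized counts, HSF4 from 11.6 ± 1.27 to 25.7 ± 8.64 and the scaffold AKAP12 from 69.7 ± 7.18 to 309 ± 66.3 (SD, n = 3 each). In the untreated library AKAP12 had 225 normalized counts.

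Of further HSF1 targets, 4 of 13 were called higher and 4 lower in EBSS+VBL+Ars against Ars, beside 21.5% and 21.3% of all genes. PPP1R15A, the stress-induced subunit that directs a phosphatase to eIF2alpha, had 594, 858 and 641 normalized counts in Ars, 4505, 5755 and 5307 in EBSS+VBL+Ars and 514 in the untreated library. Starved libraries thus stood far above both (log2 fold change 2.90 ± 0.13 SE, adjusted p 3.01e-12 by limma). ATF3, a transcription factor of stress responses, rose by 1.96, IER5 rose by 0.98 and the ubiquitin ligase TRIM16 fell by 1.43 on the log2 scale. ATF3 and PPP1R15A are also targets of ATF4 in the response to lack of amino acids. With glutamine IER5, which aids the activation of HSF1, fell by 0.70. Against the untreated library 7 of 11 of these targets were at least 1.5-fold higher in Ars, beside 15.5% of the 6129 genes compared, among them SERPINH1, the collagen chaperone HSP47, with a ratio of 2.80 (2.67 to 2.93). The 7 include ATF3, with 67.5 normalized counts in the untreated library, and ZFAND2A, with 20.0, which passed the minimum mean of 100 only through the Ars libraries.

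Chaperones of other compartments were set beside them. Of 15 ER chaperones tested, 10 fell and 2 rose in EBSS+VBL+Ars against Ars (median -1.12), beside 21.3% and 21.5% of all genes. With glutamine 6 rose and none fell against EBSS+VBL+Ars (median 0.56), beside 8.45% and 8.52%. HSP90B1, the ER member of the HSP90 family, fell from 884 ± 153 to 315 ± 33.3 normalized counts and rose to 621 ± 89.7 with glutamine (SD, n = 3 each), and PDIA4, a disulfide isomerase, fell by 1.90 and rose by 1.07 on the log2 scale. The untreated library had 485 normalized counts of HSP90B1 and 134 of PDIA4. PDIA4 means were 325 in Ars and 86.0 in EBSS+VBL+Ars. For both genes the untreated value thus lay between the Ars and EBSS+VBL+Ars means. In the mitochondrion 3 of 12 rose and 2 fell in starved cells, near the 21.5% and 21.3% of all genes. LONP1, a matrix protease, rose from 375 ± 10.9 to 1259 ± 26.0, HSPA9, the matrix HSP70, from 470 ± 28.7 to 927 ± 124, and HSPE1, the co-chaperonin HSP10, fell by 0.71 on the log2 scale. The untreated library had 598 normalized counts of LONP1 and 602 of HSPA9, above their Ars means and below their starved means. HSPE1 had 182 there, against means of 347 in Ars and 212 in EBSS+VBL+Ars.

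Of 12 oxidative and metal response genes tested, 3 rose and 2 fell in EBSS+VBL+Ars against Ars, near the 21.5% and 21.3% of all genes. NQO1, a quinone reductase, fell from 553 ± 56.3 to 90.1 ± 4.48 normalized counts, and its untreated value of 253 lay between these means. OSGIN1 rose by 1.10 on the log2 scale, and SLC7A11, the cystine transporter, rose by 1.04. In the untreated library OSGIN1 had 580 normalized counts, against means of 252 in Ars and 546 in EBSS+VBL+Ars. SLC7A11 had 223 there, against 81.7 and 169. Both were thus below the untreated library in Ars, and their starved means did not exceed the untreated value.

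**Figure D4:**
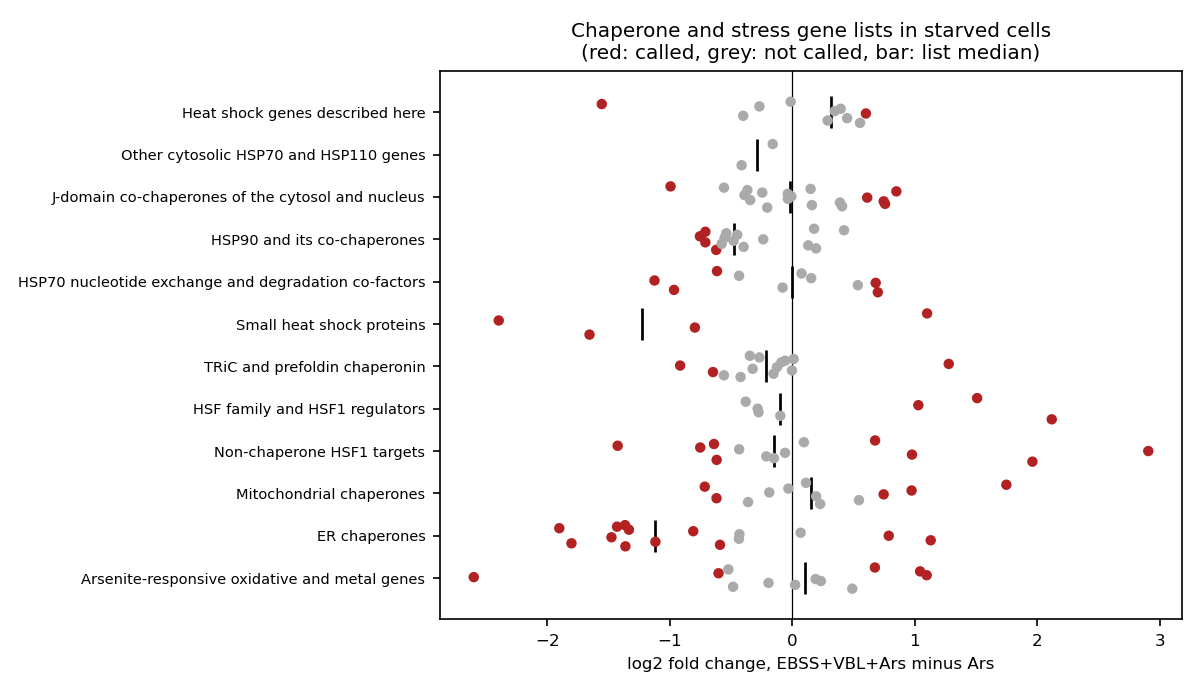
Log2 fold change of EBSS+VBL+Ars against Ars (x axis) for each tested gene of the chaperone and stress gene lists, with called genes in red, uncalled genes in grey and a bar at each list's median. The 10 heat shock genes have a median of 0.32, the 4 other genes listed as small heat shock proteins -1.23 and the ER chaperones -1.12.

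Reads shared between similar genes limit some of these values. Besides the HSPA1A and HSPA1B pair, 19.1% of the 50-base stretches of HSP90AA1, 16.8% of those of HSPA8 and 13.5% of those of HSPB1 also occur in other genes, such as HSP90AA2P, HSPA8P1 and HSPB1P1, 2.60% of those of DNAJB1 do, and none of those of HSPH1, BAG3 or HSF1. Exons of DNAJB1, HSP90AA1 and HSF1 overlap a gene on the opposite strand (TECR, WDR20 and DGAT1), and the counting was not stated to use strand.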

How the data were processed

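The authors removed ribosomal RNA and used STAR for alignment to hg38, HTSeq for read counting and DESeq2 for normalization. Not given in the sources used here were their versions, the annotation release and the strand setting. As deposited, the signal values are normalized counts, 1 per gene and library. Each value was a whole multiple of its library's step within 0.01 reads (100% of values), which gave the reads behind it and the depth. Genes with a mean of at least 10 over 9 libraries (12971 of 60671) entered limma 3.58.1 as log2(normalized count + 1) in R 4.3.3, all 3 groups in 1 fit, with Benjamini-Hochberg adjustment over all genes tested. Fold changes are on this scale and are understated for genes of low level. The untreated library entered no fit.

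The 10 genes and the other gene lists were chosen with earlier results of these data known. All 10 are named. From each list, up to 4 tested genes with the smallest p in EBSS+VBL+Ars against Ars and up to 2 in EBSS+VBL+Gln+Ars against EBSS+VBL+Ars could be named, with the 5 genes most like HSPA6 and DNAJB1. HSP90AB1 and SERPINH1 were named after their values were seen. HSPA14, with several rows, was left out. Coordinates, lengths, GC content and shared 50-base stretches came from GENCODE 44 (60401 of 60671 IDs matched), and promoters from RefSeq. Alternatives were edgeR 4.0.16 and DESeq2 1.42.0 on the recovered reads, other scalings, pseudocounts, filters and fold limits, fewer samples in the fit, a replicate block, removal of a GC trend and leaving out each library. To check the limma fit, values were simulated in which some genes differed by a set fold. Of those set at the limit of 1.5-fold, 33% were called in EBSS+VBL+Ars against Ars. The share was 19% in EBSS+VBL+Gln+Ars against EBSS+VBL+Ars and 32% in EBSS+VBL+Gln+Ars against Ars. At 2-fold the shares were 79%, 85% and 83% in that order, with 3, 4 and 3 false calls. A gene without a call is thus not shown to be unchanged. Figures were drawn with Python 3.11.15 and matplotlib 3.10.9.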

Additional observations from a re-analysis of the deposited data

How the results depend on the processing

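HSPB1 was called lower than in Ars under every alternative, with log2 fold changes of -1.74 to -1.41 for EBSS+VBL+Ars and -1.10 to -0.84 for EBSS+VBL+Gln+Ars. The other calls depended on the fold limit. In EBSS+VBL+Ars against Ars the 2 genes called became 1 with equal totals or the GC trend removed, 6 with no minimum fold, and 1 to 4 with each library left out (1 without Ars replicate 1 or EBSS+VBL+Ars replicate 2, 4 without Ars replicate 2 or EBSS+VBL+Ars replicate 1). After quantile normalization the count stayed at 2, but with 0 higher and 2 lower, so HSPA1A was lost. It also stayed at 2 without EBSS+VBL+Ars replicate 3, where HSPA1A was again not among the called genes. In EBSS+VBL+Gln+Ars against EBSS+VBL+Ars the 0 called became 1 with equal totals, quantile normalization or the GC trend removed, 5 with no minimum fold, and 0 to 2 with each library left out. In EBSS+VBL+Gln+Ars against Ars the 1 called became 2 with no minimum fold.

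Signs changed only for uncalled log2 fold changes. In EBSS+VBL+Ars against Ars HSPH1 was 0.051 with the GC trend removed and -0.11 to 0.036 with each library left out. In EBSS+VBL+Gln+Ars against EBSS+VBL+Ars, equal totals gave 0.072 for HSPA6, 0.18 for HSPA8, 0.20 for HSPH1 and 0.00206 for DNAJB1, quantile normalization 0.25 for HSPA8, 0.074 for HSPH1 and 0.026 for DNAJB1, removal of the GC trend -0.033 for HSP90AA1, and leaving out each library -0.15 to 0.010 for HSPH1. In EBSS+VBL+Gln+Ars against Ars, equal totals gave 0.00328 for HSPH1 and 0.078 for HSF1, quantile normalization 0.048 and removal of the GC trend 0.12 for HSF1, and edgeR and DESeq2 -0.00369 and -0.019 for DNAJB1. With each library left out the ranges there were -0.078 to 0.43 for HSPA6, -0.047 to 0.14 for HSPA1A, -0.071 to 0.12 for DNAJB1, -0.00540 to 0.16 for BAG3 and -0.11 to 0.081 for HSF1. The causes were not tested.

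With equal totals the median of all genes was -0.16, 0.28 and 0.12 in the 3 comparisons in that order, against 0.02, 0.00398 and 0.02 as reported. The genes called higher and lower became 2076 and 3617, 2836 and 330, and 2630 and 1593. A minimum mean of 50 called 3635 genes in place of 5548 in the first and 2723 in place of 4124 in the last, and no minimum fold called 3729 in place of 2201 in the second. With the replicate number as a replicate block, 2, 0 and 1 of the 10 genes were called, the same counts as without it, and 5634, 2385 and 4223 of all genes. Under the fold limit, limma's adjusted p with the block was 0.00421 for HSPA6, 0.00336 for HSPA1B and 0.00785 for DNAJB1 in the first comparison, 0.0164 for DNAJB1 in the second and 0.0466 for HSP90AA1 in the last, each above 0.05 without it. No pairing by replicate number was assumed in the main fit. Deviations of equally numbered libraries from their group means correlated at -0.06 to 0.31, over 0.1 in 4 of 9 pairs. For unequally numbered libraries the values were -0.31 to 0.21, over 0.1 in 4 of 18 pairs. These values do not settle whether the libraries are paired. The log2 ratio of HSPA6 in Ars to the untreated library, 7.41, was 5.66 after quantile normalization and 5.82 with a pseudocount of 5, as 1 read limits it.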
